A study of Mus musculus with 6 samples.

Results

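White adipose tissue can carry RNA of its neighbours: the mesothelium that covers fat in the body cavities, the smooth muscle of vessels, strips of skeletal muscle, and, in the fat pads under the skin, mammary ducts. The 45 genes described here mark those 4 tissues: 10 genes of mesothelium, 5 of smooth muscle, 19 of skeletal muscle and 11 of mammary epithelium. They were taken from a fixed list by gene symbol, each read from the brightest of its probe sets that carry 1 gene symbol, and all 45 were measured, among 18193 genes in total. The arrays came from white adipose tissue of 6 mice, 3 wild type and 3 KSR2-/- (called knockout here), with 1 Affymetrix array per mouse. Per the labels, all 6 animals were C57Bl6 females aged 6 months, and both groups share strain, sex, age and tissue. KSR2, kinase suppressor of Ras 2, holds kinases of the Raf-MEK-ERK pathway together, and the knockout is labelled as homozygous. The sources used here give neither the deleted part of Ksr2 nor the fat depot sampled. The labels set the 2 genotypes against each other.

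Mesothelial cells form a simple epithelium and make simple-epithelial keratins, uroplakins and mesothelin. Muscle fibres make sarcomere proteins in isoforms that differ between fast and slow fibres, whereas smooth muscle cells make their own set of contractile proteins under the control of serum response factor and myocardin. Mammary ducts hold an inner luminal layer, with simple keratins and the milk protein genes, and an outer myoepithelial layer with keratins 5 and 14. Keratins 8, 18 and 19 therefore belong to mesothelium and to luminal mammary cells alike, and desmin belongs to smooth and skeletal muscle.

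The arrays did not all match the sex in their labels. Xist, the RNA that coats the inactive X chromosome of female cells, measured 4.82 and 4.47 log2 in wild types 1 and 2, 5.06 and 4.35 in knockouts 1 and 2, but 10.10 in wild type 3 and 9.86 in knockout 3. The Y-linked gene Eif2s3y measured 7.89, 9.02, 8.47 and 9.01 in wild types 1 and 2 and knockouts 1 and 2, and 2.09 and 2.65 in wild type 3 and knockout 3. Kdm5d and Uty, also on the Y chromosome, followed Eif2s3y on every array. The 4 arrays with Y-linked transcripts and low Xist thus go against their label, and the 2 with high Xist match it. The same 4 arrays carry the higher animal numbers in the labels and the same 2 the lower ones, with as many wild types as knockouts in each series. Sex as read from these transcripts and animal-number series cannot be told apart here, so the sections that follow give each genotype difference over all 6 arrays, within the 4 higher-numbered animals and within the lower-numbered pair. The Ksr2 probe set read 4.04 to 4.74 over all 6 arrays and does not check the genotype labels.

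**Figure D1:**
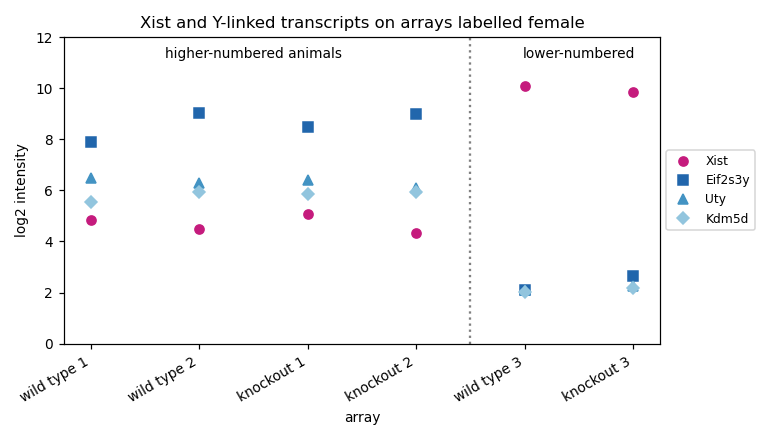
Log2 intensity of Xist and of 3 Y-linked genes (y axis) on each of the 6 arrays (x axis), 1 point per array and gene. Xist is near 10 in wild type 3 and knockout 3 and near 5 or below on the other 4 arrays, where Eif2s3y lies between 7.89 and 9.02.

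The adipocyte genes marked the tissue as fat on every array, with adiponectin, Adipoq, between 12.70 and 13.58 log2. RMA values carry no detection call, so the signal of 39 olfactory receptor genes, taken here as mostly silent in fat, served as a gauge. Their 95th percentile was 4.05 to 4.72 over the arrays, and a value under it is called near background. Of the members, 20 lay above this level on all 6 arrays and 6 on none: Actn2, Myh2, Myh7, Csn2, Lalba and Wap. Over all genes 27.4% lay above it on no array. Wild type 3 also stood apart in RNA integrity, with a 3' minus 5' difference of the Gapdh control probe sets of 4.18 log2 against 0.07 to 1.46 elsewhere. Its part in the results was not tested beyond the fit with this difference as a covariate.

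The members varied more between mice than most genes. The range over the 6 arrays, highest minus lowest, reached 2 log2 in 21 of 45 members and in 5.43% of all genes, and its median was 1.79 log2 in the members and 0.77 over all genes. Of the 45 members, 37 were highest on wild type 3 or knockout 3, against 33.4% of all genes. The 2 arrays did not carry the same classes. Mesothelial and smooth muscle genes were mostly highest in knockout 3 (8 of 10 and 4 of 5, against 13.8% of all genes, with 3 mesothelial genes ahead by at least 1 log2, against 0.0934%), and skeletal muscle and mammary genes in wild type 3 (14 of 19 and 8 of 11, against 19.5% of all genes). In bulk tissue, more cells of a type and more RNA per cell cannot be told apart.

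**Figure D2:**
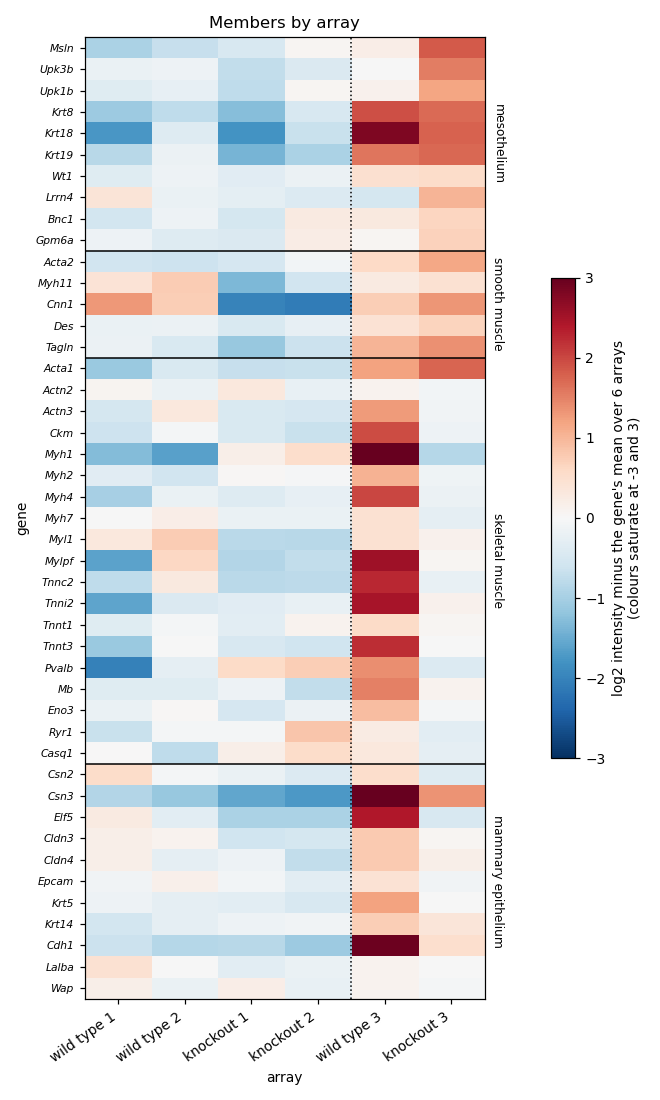
Log2 intensity of each of the 45 members minus that gene's mean over the 6 arrays (colour, saturating at -3 and 3), genes in rows by class and arrays in columns. The darkest red cells lie in wild type 3 for Myh1, Csn3 and Cdh1. The darkest blue cells include Cnn1 in knockouts 1 and 2 and Pvalb in wild type 1.

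All 10 mesothelial genes had a higher mean in the lower-numbered pair, against 62.0% of all genes, and 9 of the 10 lay above background on every array. Mesothelin, Msln, a surface protein of mesothelial cells, measured 6.12, 6.39 and 7.26 log2 in wild type and 6.59, 7.14 and 8.92 in knockout, each in the order of the animals' numbers 1 to 3 used here. The knockout 3 value was 1.66 log2 above the next array, while the other 2 knockouts lay within the wild-type range. Uroplakin 3b, Upk3b, a membrane protein of mesothelium and bladder, measured 8.56, 8.61 and 8.74 in wild type and 8.02, 8.32 and 10.28 in knockout. Here the knockout values lay on either side of the wild types, with knockout 3 above by 1.54 and knockouts 1 and 2 below. Its partner of the same plaques, Upk1b, spanned 7.01 to 8.95, and all 3 of its other probe sets were also highest in knockout 3.

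The transcription factor Bnc1, basonuclin 1, measured 5.74, 6.13 and 6.60 in wild types and 5.78, 6.57 and 6.95 in knockouts. The membrane glycoprotein Gpm6a measured 8.21, 7.99 and 8.43 against 7.95, 8.59 and 9.05. Both were highest in knockout 3 with overlapping genotypes. Wt1, the transcription factor of coelomic mesothelium, had the narrowest range in the class, 0.92 log2, and Lrrn4 was the member in which wild type 3 was the lowest array (6.70, against 6.81 to 8.24).

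In the simple-epithelial keratins wild type 3 and knockout 3 were both high. In 8 of the 10 mesothelial genes both lower-numbered arrays lay above the other 4, against 9.88% of all genes. These were the 3 keratins, Msln, Upk3b, Upk1b, Wt1 and, narrowly, Bnc1 (6.60 in wild type 3 against 6.57 in knockout 2). Krt8 measured 6.20, 6.53 and 9.23 log2 in wild type and 6.02, 6.81 and 8.99 in knockout. Krt18, with which keratin 8 pairs into filaments, measured 4.63, 5.98 and 9.16 in wild type and 4.58, 5.70 and 8.14 in knockout. Krt19 measured 6.50, 7.16 and 8.95 in wild type and 5.95, 6.39 and 9.07 in knockout. In each keratin the lower-numbered pair stood clear of the other 4 arrays. The difference between the lower- and higher-numbered animals, with genotype in the fit, was 2.72 log2 (SE 0.27) for Krt8, 3.43 (SE 0.48) for Krt18 and 2.51 (SE 0.29) for Krt19, with limma adjusted p of 0.0590, 0.141 and 0.0801. None of the 3 passed over all genes as the values were deposited. After centring the arrays on their median gene all 3 did, at limma adjusted p of 0.0107, 0.0297 and 0.0258, and after repeated quantile normalization Krt8 and Krt19 did, at 0.0260 and 0.0462. Both other Krt8 probe sets gave 2.37 and 2.91 log2.

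Of 9 other mesothelial genes, 8 were higher in the lower-numbered pair and 5 were highest in knockout 3, against 62.0% and 13.8% of all genes. Muc16, the cell surface mucin, measured 6.93 in wild type 3 and 7.61 in knockout 3 against 5.45 to 6.47 in the higher-numbered animals. The Wnt agonist Rspo1 measured 7.89 and 8.42 against 6.57 to 7.55. Podoplanin, Pdpn, did not share this and was highest in knockout 2 at 10.06.

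The contractile genes of smooth muscle were high in the lower-numbered pair, low in knockouts 1 and 2, or both. Smooth muscle actin, Acta2, measured 10.06, 10.02 and 11.25 log2 in wild type and 10.15, 10.56 and 11.81 in knockout. Transgelin, Tagln, an actin-binding protein, measured 8.77, 8.50 and 9.97 against 7.82, 8.30 and 10.32. Desmin, Des, the intermediate filament of muscle, measured 6.42, 6.45 and 7.05 against 6.16, 6.38 and 7.28. In these 3 genes the lower-numbered pair lay above the other 4 arrays, as in 9.88% of all genes, and the genotypes overlapped. Tagln and Des were also lowest in knockouts 1 and 2. Their knockout minus wild-type differences within the higher-numbered animals were -0.58 and -0.17, against 0.32 for Acta2.

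Calponin 1, Cnn1, an actin-binding regulator of contraction, measured 7.02, 6.46 and 6.45 in wild type and 3.71, 3.62 and 7.03 in knockout. Knockouts 1 and 2 were thus near background, whereas knockout 3 was level with wild type 1. The smooth muscle myosin heavy chain, Myh11, measured 6.70, 7.05 and 6.56 in wild type and 4.94, 5.70 and 6.74 in knockout, with the same 2 arrays low. Over all 6 arrays the knockout minus wild-type difference was -1.85 log2 (SE 0.87, limma adjusted p = 0.465) for Cnn1 and -0.97 (SE 0.43, limma adjusted p = 0.436) for Myh11. Within the higher-numbered animals it was -3.07 for Cnn1, at a limma adjusted p of 0.0157 with 2 arrays against 2, where 2.68% of all genes passed, and -1.55 for Myh11. Within the lower-numbered pair the differences were 0.58 and 0.19, the other way. Leaving out knockout 3 gave -2.98 for Cnn1 (limma adjusted p = 0.00413) and -1.45 for Myh11 (limma adjusted p = 0.0485), in a fit where 4.49% of all genes passed. The interaction of genotype with animal-number series did not pass for either gene (limma adjusted p = 0.283 and 0.682), so the 2 series are not shown to differ in it.

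Other genes of the smooth muscle program gave a mixed picture, 6 of 10 lower and 4 higher in knockout, against 55.6% and 44.4% of all genes. Smooth muscle gamma-actin, Actg2, was low in the same 2 knockouts as Cnn1, with 6.43, 6.56 and 7.08 in wild type and 3.71, 4.29 and 6.78 in knockout. Its lower-numbered pair also lay above the other 4 arrays. The regulatory light chain Myl9 was likewise lowest in knockouts 1 and 2 (6.96 and 7.29, against 8.26 to 9.13 elsewhere). Synaptopodin 2, Synpo2, an actin-bundling protein, went the other way, with 6.44, 6.83 and 9.20 in wild type and 8.82, 9.62 and 9.79 in knockout. Pericyte genes, which mark the other mural cells of vessels, were higher in knockout in 5 of 7 cases, against 44.4% of all genes. Their mean level ran from 7.28 to 7.95 in wild type and from 7.67 to 8.16 in knockout. Pdgfrb, the receptor that recruits pericytes, spanned 7.93 to 10.23, the channel subunit Kcnj8 6.04 to 7.50 and the proteoglycan Cspg4 5.75 to 6.94. Their part in the smooth muscle values was not tested.

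**Figure D3:**
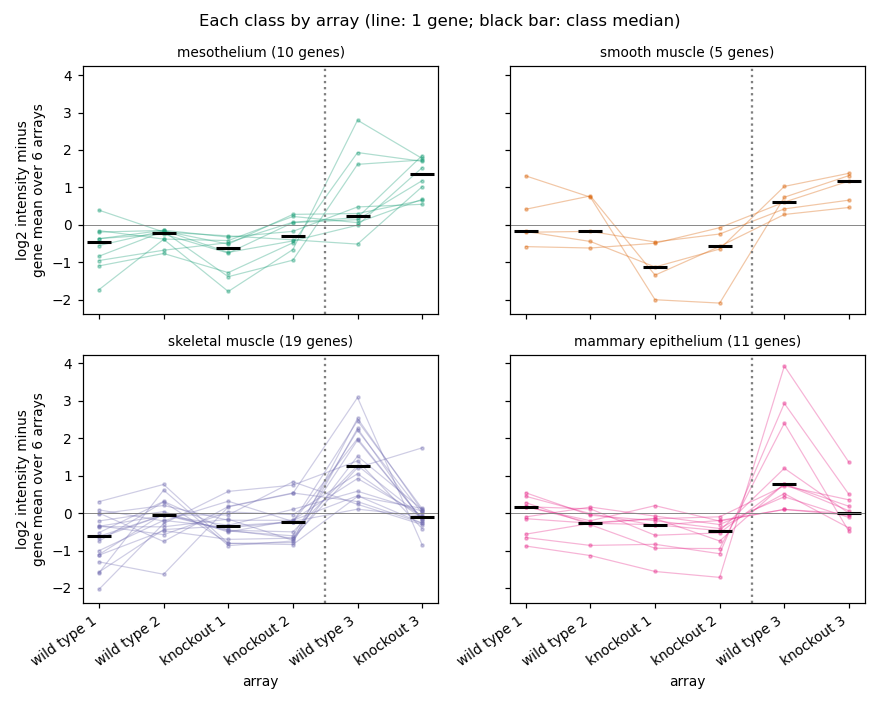
Log2 intensity minus the gene's mean over the 6 arrays (y axis) by array (x axis), 1 panel per class, with a coloured line for each gene and a black bar for the class median. The mesothelial and smooth muscle medians are highest in knockout 3, the skeletal muscle and mammary medians in wild type 3.

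Most skeletal muscle genes were highest in wild type 3. Mylpf, the fast phosphorylatable myosin light chain, measured 4.40, 6.61 and 8.52 log2 in wild type and 5.12, 5.25 and 6.05 in knockout. Tnni2, fast troponin I, measured 4.50, 5.63 and 8.54 in wild type and 5.73, 5.84 and 6.19 in knockout. Tnnc2, fast troponin C, measured 6.07, 7.12 and 9.09 against 6.01, 6.04 and 6.61. In each of these 3 genes wild type 3 exceeded the next array by 1.92 to 2.35 log2, while the other 5 arrays overlapped between genotypes for Mylpf and Tnnc2 and had both remaining wild types under the 3 knockouts for Tnni2. Fast troponin T, Tnnt3, was near background on every array but wild type 3, with 3.13, 4.22 and 6.45 in wild type and 3.76, 3.63 and 4.23 in knockout.

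The fast myosin heavy chain gene Myh1 (type IIx) measured 3.61, 3.28 and 8.00 in wild type and 5.08, 5.44 and 4.06 in knockout. Wild type 3 was 13.1-fold above the mean of the other 5 arrays on the log2 scale, and knockouts 1 and 2 lay above the remaining 3. Another Myh1 probe set repeated the order, at 7.81 in wild type 3 and 4.17 and 5.26 in knockouts 1 and 2, and the dimmest was at 2.80 to 3.10 throughout. Myh4 (type IIb) was above background in wild type 3 alone (5.12), and Myh2 (type IIa) and the slow myosin Myh7 on no array. The other Myh4 probe set was near background throughout, at 2.76 to 3.27, and lowest in wild type 3. These myosin genes are closely similar in sequence, and probe sets that read more than 1 of them were not separated here. Parvalbumin, Pvalb, the calcium buffer of fast fibres, measured 4.15, 5.91 and 7.58 in wild type and 6.77, 6.93 and 5.77 in knockout.

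In all, 14 of the 19 skeletal muscle members were highest in wild type 3, and 9 of them exceeded the next array by at least 1 log2, as did 0.385% of all genes. Muscle creatine kinase, Ckm, and myoglobin, Mb, were among these 9, at 2.00 and 1.43 log2 above the next array. Their dimmer probe sets, at 3.86 to 4.29 and 3.69 to 4.27, were highest in wild types 1 and 2 instead. Slow troponin T, Tnnt1, exceeded it by 0.48. Alpha-actinin 2, Actn2, the calcium release channel Ryr1 and calsequestrin, Casq1, were not highest there. Neither was Acta1, skeletal actin, which read 9.42 in wild type 3 and 9.95 in knockout 3 against 7.08 to 7.74 in the other 4 arrays, so that its 2 highest arrays were those of Acta2. The actin genes are also near-identical, and whether the Acta1 probe set reads the smooth muscle transcripts was not tested. Myl1, the alkali light chain of fast fibres, was at 8.16 to 9.76 on every array and highest in wild type 2. It did not follow the other fast-fibre genes: in wild type 1 it read 9.30, against 4.40 for Mylpf, 4.50 for Tnni2 and 6.07 for Tnnc2. What its probe set reads was not tested.

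The other skeletal muscle genes gave the same array: 18 of 26 were highest in wild type 3, against 19.5% of all genes, although 11 of the 26 were near background on every array. Sarcolipin, Sln, an inhibitor of the sarcoplasmic calcium pump, measured 5.56 in wild type 3 and 3.26 to 4.00 elsewhere, and the sarcomeric protein gene Smpx 5.81 against 3.24 to 3.72. The regulators Myod1 and Myog were near background throughout. Triadin, Trdn, went against the list, with 5.38, 4.83 and 6.82 in wild type and 7.15, 7.84 and 7.92 in knockout, and those groups did not overlap. Of 7 cardiac genes 5 were near background on every array, among them Myh6, the cardiac alpha-myosin, at 2.13 to 2.97, and cardiac troponin T, Tnnt2, at 2.36 to 3.57, while Mybpc3 spanned 3.86 to 4.98.

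Because the skeletal muscle genes were high together in wild type 3, the 250 bases before the start of each member were searched for CAGCTG, an E-box that myogenic factors such as MyoD can bind and that reads the same on both strands. RefSeq promoters of GRCm38.p6 matched 34 of the 45 members by symbol. The motif stood in 7 of 16 matched skeletal muscle genes (43.8%), in 14.7% of all 27025 genes with a promoter in the table, and in 0 of 6 mesothelial, 2 of 3 smooth muscle and 3 of 9 mammary genes. A match of letters is a description and not evidence of binding. The promoters of 3 skeletal muscle genes with the motif are shown. Mylpf and Myh4 peaked in wild type 3, and Acta1 peaked in knockout 3 with wild type 3 next (9.95 and 9.42). They lie at chr7:127211358-127211607 on the plus strand (Mylpf), chr11:67237562-67237811 on the plus strand (Myh4) and chr8:123894776-123895025 on the minus strand (Acta1), are written 5′ to 3′ and carry the motif in capitals.
Mylpf: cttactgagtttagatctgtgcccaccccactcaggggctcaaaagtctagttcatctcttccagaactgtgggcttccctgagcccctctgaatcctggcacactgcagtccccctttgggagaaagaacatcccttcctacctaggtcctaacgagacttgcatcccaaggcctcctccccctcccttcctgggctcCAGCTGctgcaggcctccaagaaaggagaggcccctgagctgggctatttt
Myh4: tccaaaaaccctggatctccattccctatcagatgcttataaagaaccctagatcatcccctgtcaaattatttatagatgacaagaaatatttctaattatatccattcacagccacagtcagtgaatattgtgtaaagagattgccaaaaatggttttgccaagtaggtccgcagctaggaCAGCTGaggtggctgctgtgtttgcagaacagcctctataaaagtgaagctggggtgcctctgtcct
Acta1: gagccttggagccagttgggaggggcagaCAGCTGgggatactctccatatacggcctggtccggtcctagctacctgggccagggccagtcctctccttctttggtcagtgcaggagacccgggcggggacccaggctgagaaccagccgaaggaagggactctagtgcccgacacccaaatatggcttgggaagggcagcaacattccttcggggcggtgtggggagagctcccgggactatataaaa
The motif begins 51 bases before the start in Mylpf, 67 in Myh4 and 221 in Acta1. Ckm and Mb, which peaked in wild type 3, also had it, as did Casq1, highest in knockout 2, and Myl1, highest in wild type 2. The matched promoters of Tnnc2, Myh1, Myh2, Myh7, Eno3, Pvalb and Tnnt1, which also peaked in wild type 3, did not hold it. Those of Actn2 and Ryr1, highest in knockouts 1 and 2, did not either. The motif thus did not separate the genes that peaked in wild type 3 from the others.

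Mammary genes were mostly highest in wild type 3, 4 of 11 by at least 1 log2, against 0.385% of all genes. Knockout 3 was next for Csn3, Cdh1, Krt5, Krt14 and, level with wild type 1, Cldn4. Of the milk protein genes, 3 were near background throughout. Csn3, kappa-casein, the protein that stabilises milk micelles, measured 3.93, 3.68 and 8.74 log2 in wild type and 3.25, 3.09 and 6.17 in knockout. Wild type 3 was thus 26.3-fold above the mean of the other 5 arrays on the log2 scale, and knockout 3 lay above the 4 higher-numbered animals, which were near background. Cdh1, E-cadherin, the adhesion protein of epithelia, measured 3.39, 3.18 and 6.97 against 3.21, 2.95 and 4.54. Elf5, a transcription factor of luminal progenitors, measured 4.53, 3.94 and 6.66 against 3.31, 3.31 and 3.76, above background in wild type 3 alone. The myoepithelial keratin Krt5 measured 3.78, 3.66 and 5.13 against 3.62, 3.46 and 3.92, also above background there alone. The other probe sets of Csn3 and Elf5 were near background on every array, at 2.22 to 2.69 and 2.86 to 3.30.

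The claudins, which seal tight junctions, varied less. Cldn3 measured 6.05, 5.99 and 6.65 in wild type and 5.28, 5.35 and 5.94 in knockout, so that the highest knockout lay just under the lowest wild type. Cldn4 measured 4.82, 4.38 and 5.42 against 4.49, 3.89 and 4.82. Beta-casein, Csn2, measured 3.58, 2.98 and 3.56 against 2.83, 2.62 and 2.64, near background on all 6 arrays, as were alpha-lactalbumin, Lalba, and whey acidic protein, Wap. The Epcam probe set used spanned 0.74 log2, whereas the other one gave 4.73, 4.45 and 7.03 in wild type and 4.00, 3.77 and 5.50 in knockout, high in the same 2 arrays as Csn3.

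Of 16 other epithelial genes, 11 were highest in wild type 3 and 2 in knockout 3, against 19.5% and 13.8% of all genes. Csn1s1, alpha-casein, was above background in wild type 3 alone (6.61, against 3.30 to 3.65). Foxa1, a transcription factor of hormone-responsive luminal cells, measured 7.08 in wild type 3 and 5.62 in knockout 3 against 2.81 to 3.77, and Krt7 measured 7.58 and 7.71 against 4.62 to 5.87. Of 8 epidermal genes 3 were near background on every array and 2 were highest in wild type 3. Suprabasin, Sbsn, a secreted protein of the upper epidermis, was among the latter, with 8.86, 10.29 and 10.91 in wild type and 8.23, 9.79 and 10.21 in knockout, lowest in wild type 1 and knockout 1. The epidermal keratin Krt10 spanned 5.68 to 7.43 and Krtdap 4.59 to 5.87, both highest in wild type 2. The part of epidermal RNA in the mammary values was not tested. Ovarian and oviduct genes differed by at most 1.10 log2 between arrays, with Amh at 4.76 to 5.42, Gdf9 at 4.94 to 5.88 and Ovgp1 at 3.79 to 4.89. Pancreatic acinar genes differed by at most 0.82, with Ctrb1 at 4.53 to 5.22, Cela3b at 4.98 to 5.63 and Prss2 at 5.71 to 6.53.

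The lower- and higher-numbered animals were then compared in the fit that also holds genotype, a comparison added after the Xist values were seen. Of the 45 members 44 were higher in the lower-numbered pair, as were 62.0% of all genes, with a median of 0.87 log2 against 0.07 over all genes. The class medians were 1.06 for mesothelium, 1.33 for smooth muscle, 0.87 for skeletal muscle and 0.72 for mammary epithelium. At an unadjusted limma p under 0.05, 28 members were higher and 0 lower, against 5.04% and 1.41% of all genes. In 21 members both lower-numbered arrays lay above all 4 others, as in 9.88% of all genes. No member passed limma adjusted over all genes, where 5 genes did (0.0275%): Xist higher, Eif2s3y, Kdm5d and Uty lower, and Wfdc2, a secreted epithelial protein, 2.66 log2 higher (SE 0.21, limma adjusted p = 0.0349). Among the members the largest differences were Csn3 (3.97, SE 0.42, limma adjusted p = 0.0592), Krt18, Krt8, Cdh1 (2.57, SE 0.47, limma adjusted p = 0.298) and Krt19. Acta1 differed by 2.22 (SE 0.24, limma adjusted p = 0.0596). With the arrays centred, 5 members passed limma, as did 0.176% of all genes: the 3 keratins, Csn3 (adjusted p = 0.0131) and Acta1 (adjusted p = 0.0257). With quantile normalization repeated, 4 members passed, against 0.0989% of all genes: Krt8, Krt19, Csn3 (limma adjusted p = 0.0497) and Acta1 (limma adjusted p = 0.0430). Without wild type 3 the skeletal muscle median was 0.28 and 12 of 19 genes were higher, whereas the mesothelial median was 1.79 with 10 of 10 higher. Without knockout 3 the skeletal muscle median was 1.89 and the mesothelial one 0.70, and 9 of all genes (0.0495%) passed limma, 3 of them members: Csn3 at 4.94 (adjusted p = 0.0462), Myh1 at 4.56 (adjusted p = 0.0462) and Cdh1 at 3.69 (adjusted p = 0.0493). Centring every array on its median gene left 39 of 45 members higher, against 39.9% of all genes.

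**Figure D4:**
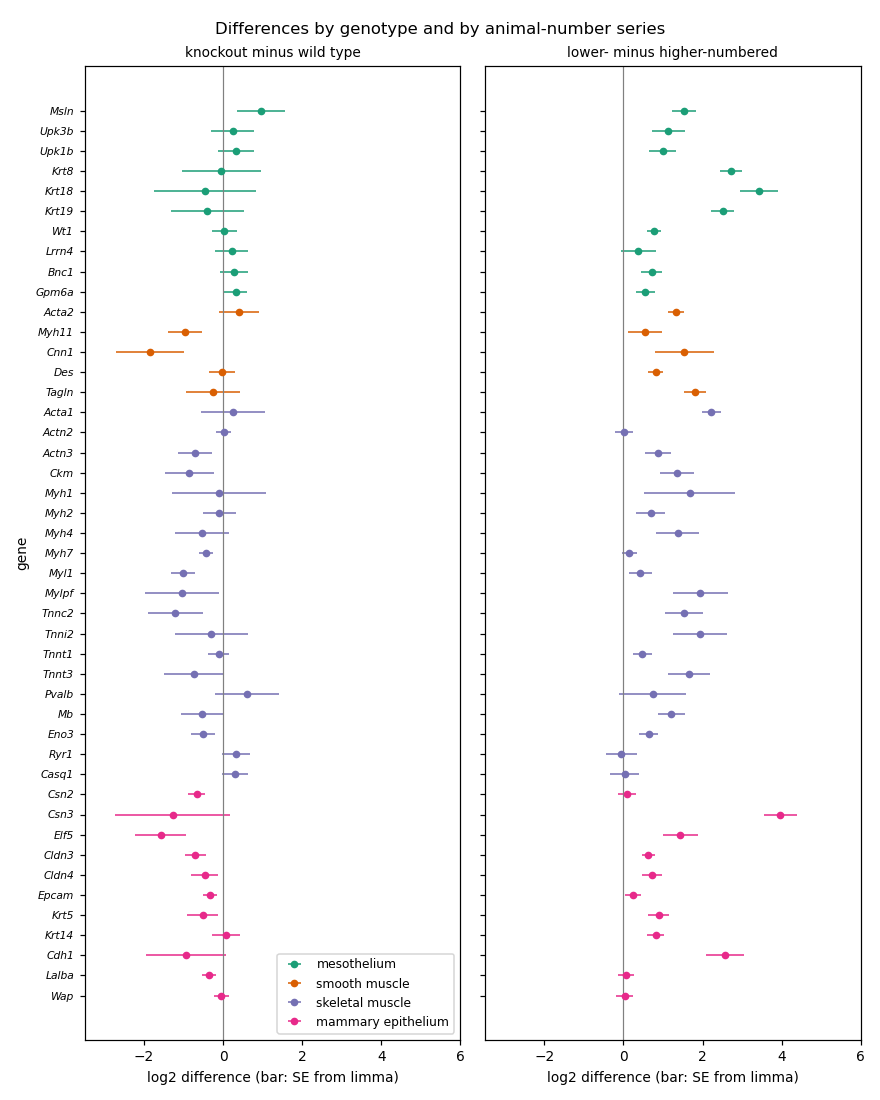
Log2 difference of each member (x axis, point) with its standard error from limma (bar), genes in rows coloured by class, for knockout minus wild type (left) and lower- minus higher-numbered animals (right). On the right 44 of 45 points lie above 0, up to 3.97 for Csn3, while on the left 31 of 45 lie below 0.

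Between genotypes, no member passed limma adjusted over all genes (lowest adjusted p = 0.277), where 1 of 18193 genes did (0.0055%), Il13ra2, which is no member. The differences were negative in 31 of 45 members and in 55.6% of all genes, with a median of -0.33 log2 against -0.04 over all genes. By class the medians were 0.23 for mesothelium (3 of 10 lower), -0.27 for smooth muscle (4 of 5 lower), -0.43 for skeletal muscle (14 of 19 lower) and -0.52 for mammary epithelium (10 of 11 lower). When the fit also held the Gapdh integrity measure they were 0.34 (1 of 10 lower), -0.03 (3 of 5 lower), -0.04 (10 of 19 lower) and -0.36 (10 of 11 lower). That measure was 4.18 in wild type 3 and 0.07 to 1.46 elsewhere. The fit with it therefore cannot tell integrity from other traits of that array. At an unadjusted limma p under 0.05 the counts were 5 members lower and 0 higher, against 5.38% and 6.71% of all genes. The same 5, Myl1, Csn2, Cldn3, Myh7 and Elf5, were those whose groups did not overlap with knockout lower, against 8.56% of all genes, and 0 members did so with knockout higher, against 7.72%.

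Myl1 measured 9.30, 9.76 and 9.44 log2 in wild type and 8.19, 8.16 and 9.12 in knockout. The wild-type mean was 9.50 ± 0.24 and the knockout mean 8.49 ± 0.55 (SD, n = 3 each), a difference of -1.01 (SE 0.29, limma adjusted p = 0.277), with knockout 3 close to the wild types. Leaving out knockout 3 gave -1.33 at a limma adjusted p of 0.0228. Cldn3 differed by -0.71 (SE 0.26, limma adjusted p = 0.362), with -0.70 and -0.71 within the higher- and lower-numbered animals, and its 3 other probe sets gave -0.73, -0.71 and 0.03. Elf5 differed by -1.58 (SE 0.64, limma adjusted p = 0.398), and by -0.93 within the higher-numbered animals and -2.89 within the lower-numbered pair. Myh7, at 3.58, 3.81 and 4.07 in wild type and 3.41, 3.41 and 3.33 in knockout, and Csn2 were near background on every array, where a difference is no measure of a transcript.

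Leaving out a single array turned the direction of the genotype medians of mesothelium, smooth muscle and skeletal muscle. Without knockout 3 the mesothelial median was -0.24 with 3 of 10 genes higher, against 0.23 with 7 of 10 over all arrays. Without wild type 3 the skeletal muscle median was 0.15 with 7 of 19 genes lower, and the smooth muscle median 0.17. The mammary median was then -0.20 with 8 of 11 lower. The smooth muscle median also turned without knockout 1, to 0.19 with 3 of 5 genes higher. Within the higher-numbered animals the skeletal muscle median was 0.10 and the mammary one -0.41, with 8 of 19 and 9 of 11 genes lower, against 53.5% of all genes. The mesothelial median there was -0.02 with 5 of 10 lower, and the smooth muscle median -0.58 with 4 of 5 lower. Within the lower-numbered pair, 1 array against 1 and without a test, 18 of 19 skeletal muscle and 11 of 11 mammary genes were lower in the knockout, against 59.2% of all genes, with medians of -1.38 and -0.71. In the same pair mesothelium gave 0.49 with 2 of 10 lower, and smooth muscle 0.35 with 0 of 5 lower. In 13 of the 45 members the genotypes did not overlap within the higher-numbered animals and the pair had the opposite sign, as in 15.2% of all genes. Myh1 measured 1.82 higher in knockout within the higher-numbered animals (limma adjusted p = 0.0334 with 2 arrays against 2) and differed by -3.94 within the lower-numbered pair.

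**Figure D5:**
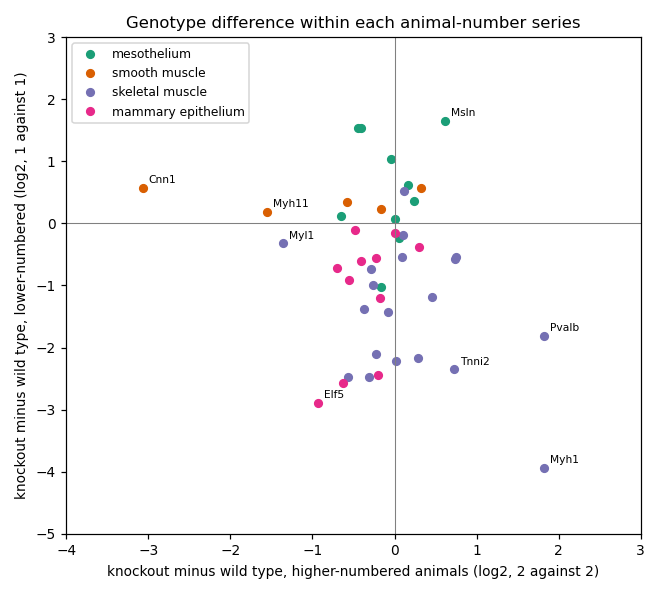
Knockout minus wild-type log2 difference of each member within the 4 higher-numbered animals (x axis) and within the lower-numbered pair (y axis, 1 array against 1), coloured by class. Cnn1 lies at -3.07 and 0.58, Myh1 at 1.82 and -3.94, and most skeletal muscle and mammary genes lie below 0 on the y axis.

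Genes that mark the position of a fat depot were read beside these classes, since the depot is not given. Of 5 genes that run higher in subcutaneous fat, Shox2 measured 5.97 to 7.64, Hoxc9 6.33 to 7.44 and Sfrp2 7.75 to 8.86 over the arrays, and En1 was near background on every one. Of 5 that run higher in visceral fat, Tcf21 measured 6.39, 7.16 and 7.32 in wild type and 5.62, 6.18 and 7.17 in knockout, Hoxc8 8.75 to 10.21 and Nr2f1 4.96 to 6.54. Wild type 3 or knockout 3 held the highest value in 1 of 5 subcutaneous and 2 of 5 visceral genes, against 33.4% of all genes. Both lay above the other 4 arrays in 0 of 5 and in 2 of 5, Tcf21 and Gpc4, against 9.88%. Gpc4 measured 8.93 in wild type 3 and 9.20 in knockout 3 against 8.42 to 8.85. Whether the arrays sampled different depots was not tested beyond these values.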

How the data were processed

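Per the submitters' processing notes, the authors made the deposited intensity values with RMA (version not given in the sources used here), which corrects background, normalizes arrays to 1 distribution and summarises probe sets. The values are linear, with a lowest of 2.96, so log2 was taken without a pseudocount. Of 45101 probe sets, 64 were controls, 34945 had 1 gene symbol, 932 several and 9160 none; symbols were updated through gene identifiers to RefSeq (GRCm38.p6), matching 34741. For each gene the brightest probe set with 1 symbol was kept, giving 18193 genes, with no filter. Differences between genotypes were fitted in R 4.3.3 by lmFit and eBayes of limma 3.58.1, and the two-sided p-values of all genes were adjusted by Benjamini-Hochberg and called under 0.05. The script was tested on simulated data. The Y-linked genes, listed as absent in female mice, were not used as a background gauge because 4 arrays carried them. Animals were not paired by the labels. The members and lists were chosen with earlier results of these data known, so no list was tested. Values were printed for the 5 members per class with the widest range and the 3 with the smallest p, and, for most other lists, values or ranges for the 3 widest; further genes were named after their values were seen. Each genotype p over all arrays rests on 3 mice per group. Within the higher-numbered animals it rests on 2 against 2, and with 1 array left out on 3 against 2. Each p between the series rests on 2 lower-numbered against 4 higher-numbered animals, or fewer with 1 array left out. These numbers limit the precision.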

Additional observations from a re-analysis of the deposited data

Results flagged for a closer look

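In 9 of the 27 members printed array by array, the higher-numbered animals all moved one way with genotype and the lower-numbered pair the other, as did 15.2% of all genes. These differences were not shown by a test: the interaction of genotype and animal-number series passed limma for 0 of 18193 genes. Knockout minus wild-type values within the higher-numbered animals and within the lower-numbered pair were -0.41 and 1.54 for Upk3b, -0.66 and 0.12 for Krt19, -1.55 and 0.19 for Myh11, -3.07 and 0.58 for Cnn1, -0.17 and 0.23 for Des, -0.58 and 0.35 for Tagln, 1.82 and -3.94 for Myh1, 0.72 and -2.35 for Tnni2, and 1.82 and -1.81 for Pvalb. The lower-numbered value is a single array against a single array in each case. The causes were not tested.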

How the results depend on the processing

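The count of genes past limma between genotypes was 12 with genes at or above the median mean, 12 with quantile normalization repeated, 16 with arrays centred, 10 with a trend, 0 when animal-number series was a block, 6 with the Gapdh difference as a covariate, 0 with log2(value + 16), 487 in the higher-numbered animals, and 0 to 816 with 1 array left out. The skeletal muscle median was -1.38 in the lower-numbered pair. Of members highest in wild type 3 or knockout 3, 6 skeletal muscle and 0 mammary genes were left by the filter at the median, which removes dim genes. Between series, 18, 32 and 0 genes passed with quantile normalization, centring and log2(value + 16), and 0 to 9 with 1 array left out; the smooth muscle median was 0.50 with the mean of all probe sets, and the skeletal muscle median 0.28 to 1.89 with 1 array left out. Centring moved the share of all genes higher in the lower-numbered pair from 62.0% to 39.9%. The genotype sign turned in the higher-numbered animals for Upk3b (-0.41), Krt8 (0.0534), Myh1 (1.82), Tnni2 (0.72) and Tnnt3 (0.0187), in the lower-numbered pair for Krt19 (0.12), Myh11 (0.19), Cnn1 (0.58), Des (0.23), Tagln (0.35) and Pvalb (-1.81), and with the Gapdh covariate for Krt8 (0.49), Krt18 (0.29), Des (0.0790), Myh1 (0.73) and Tnni2 (0.35). With 1 array left out the ranges were -0.47 to 0.67 for Upk3b, -0.90 to 0.91 for Krt8, -1.45 to 0.84 for Krt18, -1.37 to 0.31 for Krt19, -0.0860 to 0.80 for Acta2, -0.37 to 0.19 for Des, -1.02 to 0.23 for Tagln, -0.95 to 1.42 for Myh1, -1.17 to 0.85 for Tnni2, -1.46 to 0.20 for Tnnt3, -0.25 to 1.46 for Pvalb, -2.28 to 0.37 for Csn3 and -1.61 to 0.28 for Cdh1. Between series the sign turned for Csn2 with centring (-0.0486), and the ranges were -0.32 to 1.42 for Myh11, -0.29 to 3.36 for Cnn1, -1.20 to 4.56 for Myh1, -0.0779 to 0.37 for Myh7, -0.0899 to 0.95 for Myl1, -1.08 to 2.56 for Pvalb and -0.0901 to 0.28 for Csn2. The causes were not tested beyond these settings. The labels pair no animals.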

Other observations

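Ucp1, the uncoupling protein of brown and beige adipocytes, was high in the same 2 arrays as the keratins. It measured 3.79, 3.84 and 7.27 log2 in wild type and 4.20, 4.24 and 6.25 in knockout, a difference between the lower- and higher-numbered animals of 2.74 (SE 0.32, limma adjusted p = 0.0801). Cidea, a lipid droplet protein of the same cells, measured 8.48, 9.21 and 8.11 in wild type and 4.45, 4.93 and 7.23 in knockout. Knockouts 1 and 2 were thus lowest, as for Cnn1 and Actg2. Unlike in those genes, knockout 3 also lay under every wild type. The adipocyte hormone resistin, Retn, was also lowest in knockouts 1 and 2 (11.37 and 11.88, against 13.16 to 13.42 on the other arrays). Its knockout 3 value, 13.16, lay just under the lowest wild type, 13.31.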
